A study of Homo sapiens with 6 samples.

Results

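The large subunit of the human ribosome is built by a long series of assembly factors, and 50 of them, chosen by name from the 30270 genes of the count table, are described here. They comprise factors that act on the large-subunit precursor from the nucleolus to the cytoplasm and 4 proteins of the nucleolar scaffold and the small nucleolar ribonucleoproteins (snoRNPs). The rule for the list used gene names, but the list was chosen with earlier results of these data known. The study compared HEK 293T cells, an immortalized human embryonic kidney line, in 2 genotypes. WT was the unmodified line and TENT3A/B double knockout (ΔTUT4/7) was a line made earlier to lack TUT4 (TENT3A) and TUT7 (TENT3B), enzymes that add uridines to the 3′ ends of RNAs. Both were grown untreated in DMEM with fetal bovine serum and antibiotics, and 3 biological replicates of each gave rRNA-depleted total RNA libraries. The ΔTUT4/7 cells were a gift from another group and the sources used here do not say whether they are 1 clone, so the genotype and the history of that line cannot be told apart.

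Ribosome assembly begins in the nucleolus, where the pre-rRNA is transcribed, modified by snoRNPs and folded while ribosomal proteins bind. Assembly factors join the large-subunit precursor in waves: early factors and DEAD-box helicases arrange its domains, the PeBoW complex and the ITS2 nuclease machinery remove the spacer ITS2, AAA ATPases strip off bound factors, and export adaptors and cytoplasmic GTPases finish the particle. These factors are known to be made together in growing cells, and MYC is among the transcription factors known to drive them.

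Libraries held 18757228 to 29891630 estimated counts in WT and 20339896 to 33148937 in those labelled ΔTUT4/7. TUT4 was higher in the libraries labelled ΔTUT4/7, at 906 ± 21.4 CPM (counts per 1000000 counts of a scaled library, mean ± SD, n = 3) against 211 ± 5.08 CPM in WT (FDR 7.89e-19), and so went against its label, while TUT7 was lower, at 26.3 ± 1.04 against 62.6 ± 2.17 CPM (FDR 2.20e-13). A count over a whole gene can include exons outside a deletion, so these counts do not settle the genotype, and every direction below is that of the libraries labelled ΔTUT4/7 and rests on the label. All 6 markers of HEK 293T cells examined were detected in WT. Of these markers 2 were higher (VIM, KRT18) and 4 lower (NEFL, NEFM, KRT8, PAX2), and their summed level was 1785 to 1988 CPM in WT and 1397 to 1410 CPM in ΔTUT4/7. NEFM was at 0 counts in 2 of the 3 libraries labelled ΔTUT4/7. Of 4 markers of other cell types in the table, COL1A1 alone passed the count filter, at 18.7 to 21.7 CPM in WT and 6.55 to 8.07 CPM in ΔTUT4/7. The part of these markers in the results below was not tested.

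All 50 factors passed the count filter, the lowest single value being 364 counts. At a false discovery rate (FDR, the Benjamini-Hochberg adjusted p of the edgeR quasi-likelihood test over 23952 genes) under 0.05, 46 of the 50 factors were higher in ΔTUT4/7, against 28.6% of all tested genes. SDAD1 and RSL24D1 were lower, against 29.0% of all tested genes, and NOP53 and WDR18 were not called. At 2-fold or more, 13 factors were higher, against 5.90% of all tested genes, and 0 lower, against 12.4%. These 13 were NOP2, DKC1, NOLC1, RRS1, BRIX1, NPM1, NIP7, NOC3L, NOP16, NCL, DDX54, PES1 and DDX27. Many factors lay close to the 2-fold line, with 8 at a log2 fold change of 0.9 to 1 and 7 at 1 to 1.1. Under library-size scaling 6 of these 13 factors were at least 2-fold higher, namely BRIX1, DKC1, NOLC1, NOP2, NPM1 and RRS1. The share of all tested genes at least 2-fold higher under that scaling was 4.44%.

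The median log2 fold change of the 50 factors was 0.81, with quartiles of 0.55 and 1.00, against -0.02 over all tested genes. Among the 12447 protein-coding genes with an average of at least 50 counts the median was 0.08, 42.7% were called higher and 31.7% lower, with 5.74% at least 2-fold higher and 7.42% at least 2-fold lower. For 46 factors all 3 libraries labelled ΔTUT4/7 lay above all 3 WT libraries, against 30.9% of all tested genes and 44.3% of those protein-coding genes. For SDAD1 alone all lay below, and the share of all tested genes in that direction is not given here. The summed level of the 50 factors was 5601, 5461 and 5981 CPM in WT replicates 1, 2 and 3 and 10293, 10765 and 10402 CPM in ΔTUT4/7, a ratio of 1.85. NCL, NPM1, NOLC1 and MDN1 together supplied 38.2% to 45.4% of that sum. CPM is a share of the library and the RNA is from bulk cells, so more cells carrying a transcript and more of it per cell cannot be told apart.

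**Figure D1:**
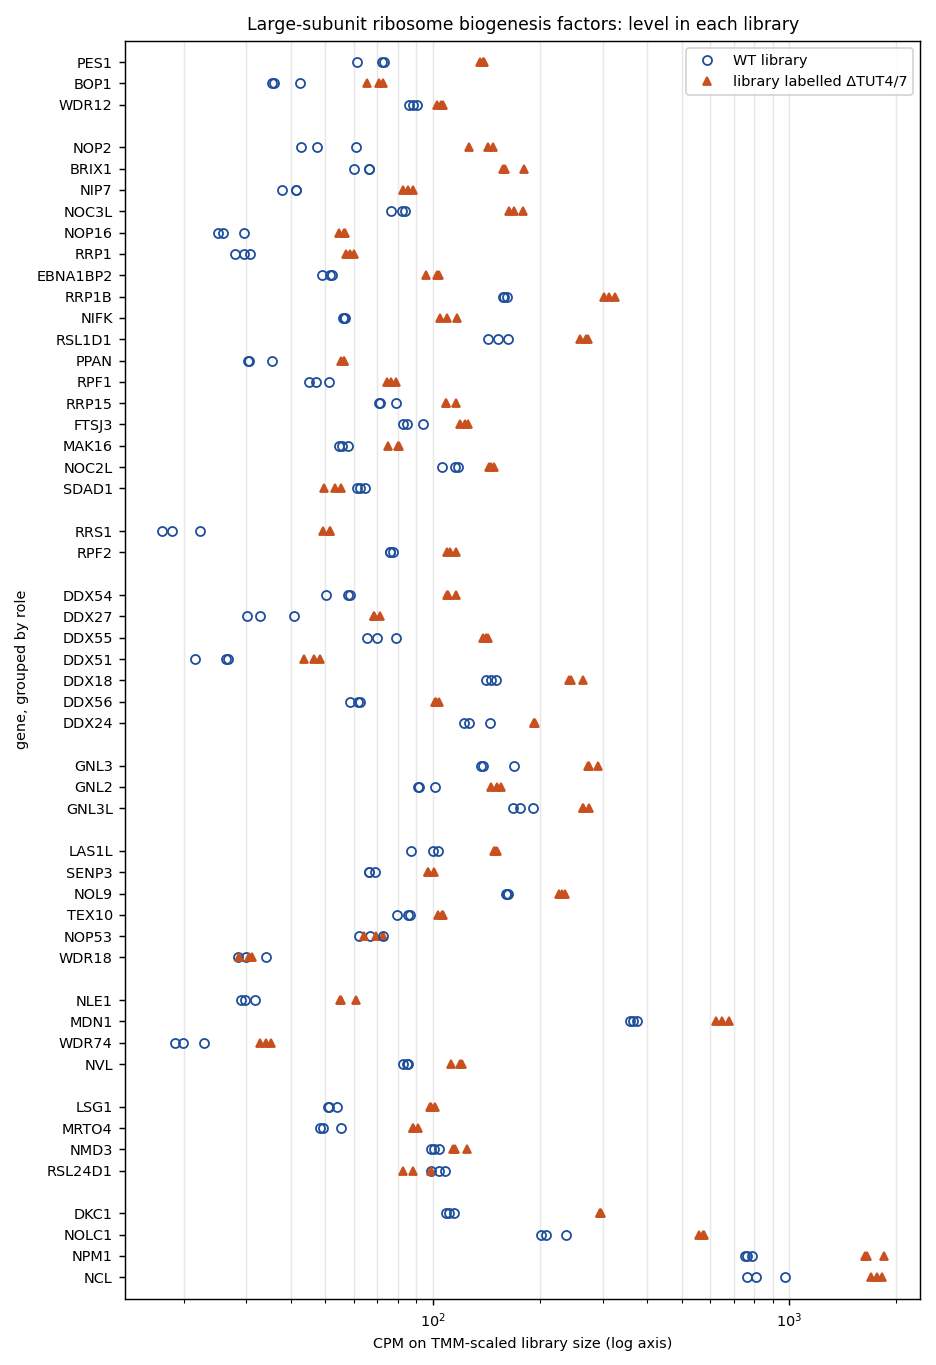
Level of each of the 50 factors in each of the 6 libraries, grouped by role, on a log axis in CPM. Circles are the 3 WT libraries and triangles the 3 labelled ΔTUT4/7, and for 46 factors every triangle lies to the right of every circle.

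Within WT, replicate 3 was the highest library for 37 of the 50 factors, whereas it was the highest for 32.9% of expressed genes. The median coefficient of variation of the factors was 5.82% in WT and 3.18% in ΔTUT4/7, and it exceeded 10% in WT for 7 of them. The number of factors called higher was 46 whichever library was left out, WT replicate 3 included. The factors with an overlapping gene on the opposite strand that held 52.6% or more of their own counts were BRIX1, DDX27, DDX55, FTSJ3, GNL3, NIP7, NOP16 and TEX10. The largest share was 294%, for ARL10 over NOP16, and whether the counting used strand is not given. Per kilobase of annotated exon, the highest WT levels of the 50 were those of NCL (95.3 CPM), NPM1 (92.3 CPM), NOLC1 (54.3 CPM) and GNL3 (45.8 CPM), and the lowest was that of DDX51 (3.91 CPM).

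Promoter sequences are shown for 4 factors, chosen because they span the outcome: DDX54 and MDN1 carry the E-box letters and were higher, SDAD1 carries them and was lower, and DKC1, which had the smallest FDR of the 50, lacks them. The E-box CACGTG is a sequence bound by MYC and related factors. Each line gives the 250 bases before the RefSeq transcription start on GRCh38.p14, 5′ to 3′ on the gene's own strand, with CACGTG in capitals.
DDX54 (chr12:113185479-113185728, minus strand): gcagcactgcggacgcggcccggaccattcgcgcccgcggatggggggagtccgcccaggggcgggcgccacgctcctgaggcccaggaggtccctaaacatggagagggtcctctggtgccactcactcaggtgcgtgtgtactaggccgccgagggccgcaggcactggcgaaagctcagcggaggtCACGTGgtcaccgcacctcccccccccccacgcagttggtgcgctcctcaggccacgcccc
MDN1 (chr6:89819795-89820044, minus strand): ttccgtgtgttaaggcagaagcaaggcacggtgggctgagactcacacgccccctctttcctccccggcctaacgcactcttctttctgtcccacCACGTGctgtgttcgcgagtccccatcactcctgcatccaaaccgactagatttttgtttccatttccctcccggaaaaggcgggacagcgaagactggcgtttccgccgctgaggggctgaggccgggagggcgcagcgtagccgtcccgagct
SDAD1 (chr4:75990946-75991195, minus strand): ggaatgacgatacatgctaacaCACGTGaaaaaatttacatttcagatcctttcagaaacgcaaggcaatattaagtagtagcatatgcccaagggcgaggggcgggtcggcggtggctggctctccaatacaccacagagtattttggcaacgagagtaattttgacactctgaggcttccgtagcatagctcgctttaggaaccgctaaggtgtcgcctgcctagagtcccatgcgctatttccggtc
DKC1 (chrX:154762614-154762863, plus strand): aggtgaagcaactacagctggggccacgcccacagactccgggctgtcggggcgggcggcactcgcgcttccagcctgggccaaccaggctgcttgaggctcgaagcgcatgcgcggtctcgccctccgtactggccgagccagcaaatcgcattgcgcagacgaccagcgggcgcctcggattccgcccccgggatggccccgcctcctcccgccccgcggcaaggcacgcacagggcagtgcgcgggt
The E-box began at position -61 from the start of DDX54, at -155 from that of MDN1 and at -228 from that of SDAD1. MDN1 had another at position 27, after the start and outside the printed bases. RefSeq promoters from 250 bases before to 50 after the start were matched for 42 of the 50 factors, and 12 of the 42 (28.6%) held CACGTG, which reads the same on both strands. The share was 8.77% over the 27305 genes of the promoter table and 12.8% over the tested protein-coding genes with an average of at least 50 counts.

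The 12 factors with the E-box letters were PES1, NOP2, NOC3L, EBNA1BP2, SDAD1, DDX54, GNL2, GNL3, TEX10, MDN1, NLE1 and MRTO4. Their median log2 fold change was 0.92 with 11 called higher, and that of the 30 without was 0.70 with 27 called higher. The 8 factors with no matched promoter had a median of 0.85, and all 8 were higher. These medians are descriptions, and no test was made between them. Of the other letters searched on both strands, CCGGAAG, an ETS-type sequence, was in 42.9% of the factors' promoters, 22.8% of those of the expressed protein-coding genes and 12.2% of all. TCTCGCG was in 14.3%, 8.04% and 4.17% of the same sets, and AAGATGG, a YY1-type sequence, in 14.3%, 9.52% and 7.11%. None of the 4 sequences contains another. A match of letters does not show that a factor binds there. The MYC transcript itself stood at 55.9, 54.8 and 63.0 CPM in WT replicates 1, 2 and 3 and at 110.0, 105 and 108 CPM in ΔTUT4/7 (log2FC 0.89 ± 0.06, FDR 1.25e-11). The ΔTUT4/7 libraries lay above every WT library for MYC, as they did for 30.9% of all tested genes and 44.3% of expressed protein-coding genes. The part of MYC in the levels of the factors was not tested.

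The 4 proteins of the nucleolar scaffold and snoRNPs had the highest median of the 9 role groups, 1.28, and all 4 were at least 2-fold higher. DKC1 encodes dyskerin, the pseudouridine synthase of box H/ACA snoRNPs, and its promoter is the one printed above without an E-box. It stood at 109.2, 115 and 111 CPM in WT and at 296, 295 and 297 CPM in ΔTUT4/7, replicates 1, 2 and 3 in order here and below. The groups were far apart and the 3 ΔTUT4/7 libraries nearly equal, with a log2 fold change (log2FC, ± SE) of 1.40 ± 0.04 and an FDR of 1.63e-16. NOLC1, a nucleolar protein that binds snoRNPs, rose from 209, 201 and 237 CPM to 558, 579.5 and 574 CPM (log2FC 1.40 ± 0.05, FDR 2.21e-14). NPM1, the nucleolar chaperone nucleophosmin, rose from 767 ± 16.9 to 1714 ± 120.4 CPM (log2FC 1.16 ± 0.05, FDR 2.07e-14). NCL encodes nucleolin, which binds pre-rRNA, and it was less even in WT, at 806, 764 and 978 CPM against 1705, 1828 and 1765 CPM. WT replicate 3 was the highest of the WT values of NCL and still lay below every ΔTUT4/7 library, with a log2 fold change of 1.06 ± 0.09 and an FDR of 3.50e-05.

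The 17 early nucleolar assembly factors had a median of 0.97, with 16 higher, 5 of them at least 2-fold, and 1 lower. RRP1B and its paralog RRP1 are nucleolar proteins of early large-subunit precursors. RRP1B rose from 159 ± 2.11 to 313 ± 11.1 CPM (log2FC 0.97 ± 0.04, FDR 5.45e-14). BRIX1, the human Brx1, rose from 60.3, 66.1 and 66.5 CPM to 159, 181 and 157 CPM (log2FC 1.36 ± 0.06, FDR 7.43e-14). NOC3L, a nucleolar complex protein, rose with a log2FC of 1.08 ± 0.05 at an FDR of 9.56e-14. All 3 had ΔTUT4/7 libraries above every WT library. BRIX1 overlaps RAD1 on the opposite strand, and RAD1 had 55.5% as many counts as BRIX1.

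NOP2, the methyltransferase that makes a 5-methylcytosine in the large rRNA, had the largest fold change of the 50 and the largest error. It stood at 42.8, 47.3 and 60.9 CPM in WT against 148, 143 and 126 CPM in ΔTUT4/7 (log2FC 1.46 ± 0.15, FDR 0.000712). The gene lies at chr12:6556863-6568691 on the minus strand of hg38 and shares a region on that strand with AC006064.6, so the counting model can divide reads between the pair. AC006064.6 stood at 38.4, 29.6 and 26.6 CPM in WT against 81.9, 83.8 and 96.8 CPM in ΔTUT4/7. In both groups the order of the libraries by AC006064.6 was the reverse of their order by NOP2. The sum of both genes stood at 81.2, 76.9 and 87.5 CPM against 229.8, 227 and 223 CPM. The sum was 81.9 ± 5.35 CPM in WT against 226.6 ± 3.33 CPM in ΔTUT4/7, a log2 ratio of means of 1.47, and its SD was smaller than that of NOP2 alone, 9.42 CPM in WT and 11.3 CPM in ΔTUT4/7.

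**Figure D2:**
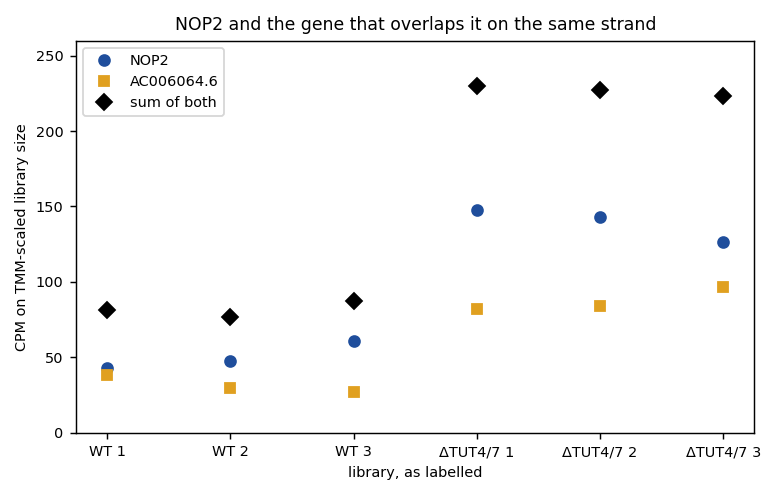
NOP2, the gene AC006064.6 that overlaps it on the same strand, and their sum in each of the 6 libraries, in CPM on a linear axis from 0. NOP2 ranges from 42.8 to 60.9 CPM in WT and the sum from 76.9 to 87.5 CPM, and the 3 ΔTUT4/7 sums lie at 223 CPM or above.

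SDAD1, the human Sda1 and a factor of nuclear large-subunit precursors, was the exception of its group. It stood at 64.4, 61.2 and 62.3 CPM in WT against 49.6, 55.3 and 53.2 CPM in ΔTUT4/7 (log2FC -0.25 ± 0.06, FDR 0.000654). Its ΔTUT4/7 libraries all lay below the WT libraries. Its promoter is printed above with its E-box. SDAD1 overlaps NAAA on the same strand, which stood at 7.39 ± 0.41 CPM in WT against 1.90 ± 0.19 CPM in ΔTUT4/7, and the sum of both was also lower, at 70.0 ± 1.54 CPM in WT against 54.6 ± 2.69 CPM. Expressed genes within 5 Mb of SDAD1 had a median log2 fold change of -0.52, and SDAD1 was 0.27 above that median.

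The remaining 11 early factors were all higher. NIP7, which binds the precursor with NOP2, rose from 37.8, 41.3 and 41.3 CPM to 82.6, 88.2 and 85.2 CPM (log2FC 1.08 ± 0.06, FDR 5.59e-13), and NOP16 from 24.9, 25.7 and 29.5 CPM to 54.8, 56.5 and 56.7 CPM (log2FC 1.06 ± 0.07, FDR 1.57e-11). These were the other two early factors past 2-fold beside NOP2, BRIX1 and NOC3L. EBNA1BP2, the human Ebp2, and NIFK, which binds the proliferation marker Ki-67, lay just under it at 0.99 ± 0.05 and 0.97 ± 0.05 on the log2 scale. RSL1D1 and PPAN, the human Ssf1, were at 0.81 ± 0.05 and 0.79 ± 0.07. RPF1 and MAK16, which bind the precursor as a pair, were at 0.68 ± 0.06 and 0.48 ± 0.05, and RRP15 was at 0.60 ± 0.05. FTSJ3, an rRNA methyltransferase, was at 0.49 ± 0.05, and NOC2L, a partner in nucleolar complexes, was lowest at 0.37 ± 0.05. PPAN overlaps P2RY11 on the same strand, and their summed level gave a log2 ratio of means of 0.71. On the opposite strand NIP7 overlaps COG8, with 92.5% as many counts, FTSJ3 overlaps PSMC5, with 101%, and NOP16 overlaps ARL10, with 294%. For all 11 the ΔTUT4/7 libraries lay above every WT library.

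RRP1B and RRP1 are neighbours at chr21:43659560-43696079 and chr21:43789513-43805293 and rose together. RRP1 went from 29.6, 27.9 and 30.7 CPM to 58.5, 57.2 and 59.96 CPM (log2FC 0.99 ± 0.06, FDR 7.97e-12). The log2 ratio of RRP1B to RRP1 was 2.44 ± 0.06 (SD, n = 3) in WT and 2.42 ± 0.04 in ΔTUT4/7. The difference of -0.02 gave p = 0.70 in a two-sided exact permutation test over the 6 libraries, whose smallest possible p is 0.10 (0.70 after adjustment over the 2 paralog pairs tested).

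The 3 members of PeBoW, the complex needed for processing of ITS2, were all higher, with log2 fold changes from 0.25 to 1.00. PES1 stood at 73.0, 61.5 and 72.1 CPM in WT against 138, 139.8 and 136 CPM in ΔTUT4/7 (log2FC 1.00 ± 0.06, FDR 6.15e-12). BOP1 rose from 37.9 ± 3.87 to 69.6 ± 3.85 CPM (log2FC 0.89 ± 0.07, FDR 6.10e-10). WDR12 stood at 85.8, 90.3 and 88.3 CPM against 103, 107 and 106 CPM (log2FC 0.25 ± 0.05, FDR 0.000106). The groups did not overlap for any of the 3 genes, and the interval of 1 SE around WDR12 lay far below those of PES1 and BOP1. No test was made between the members.

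RRS1 and RPF2 form a pair that loads the 5S rRNA particle on the precursor, and both were higher. RRS1 rose from 18.5, 17.3 and 22.2 CPM to 49.1, 51.4 and 51.6 CPM (log2FC 1.38 ± 0.08, FDR 4.59e-12). RPF2 rose from 77.2, 75.7 and 75.8 CPM to 109.9, 117 and 112 CPM (log2FC 0.56 ± 0.05, FDR 1.68e-09). For each gene the WT and ΔTUT4/7 libraries were separate.

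All 7 DEAD-box helicases, which unwind or clamp RNA in the precursor, were higher, with a median of 0.90, and 2 of them, DDX54 and DDX27, were at least 2-fold higher. DDX54, whose promoter is printed above, rose from 57.7, 50.1 and 58.8 CPM to 116, 111 and 109.8 CPM (log2FC 1.02 ± 0.06, FDR 3.90e-12). DDX18 rose from 146 ± 4.496 to 249.8 ± 12.2 CPM (log2FC 0.77 ± 0.05) and DDX55 from 71.3 ± 6.84 to 141 ± 2.49 CPM (log2FC 0.98 ± 0.06). Their FDRs were 7.14e-12 and 1.22e-11. DDX27 was the least certain of the 7, at 32.7, 30.1 and 40.7 CPM in WT against 68.6, 71.1 and 68.5 CPM in ΔTUT4/7 (log2FC 1.00 ± 0.09, FDR 2.03e-06). WT replicate 3 was the highest WT library of DDX27. DDX24, DDX51 and DDX56 had log2 fold changes from 0.56 for DDX24 to 0.90 for DDX51. DDX55 overlaps EIF2B1 and DDX27 overlaps ZNFX1 on opposite strands, and both of these had 89.2% or more of the counts of the helicase.

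The 3 nucleolar GTPases were all higher by less than 2-fold, with a median of 0.67. GNL2, the human Nog2, rose from 94.6 ± 5.82 to 151 ± 4.75 CPM (log2FC 0.67 ± 0.05, FDR 2.51e-10). GNL3, or nucleostemin, rose from 137, 138 and 169.7 CPM to 274, 290.5 and 275 CPM (log2FC 0.91 ± 0.08, FDR 3.73e-06). Its paralog GNL3L rose from 176, 168 and 191 CPM to 264, 264 and 275 CPM (log2FC 0.58 ± 0.05, FDR 1.29e-09). The log2 ratio of GNL3L to GNL3 counts was 0.27 ± 0.09 (SD, n = 3) in WT and -0.07 ± 0.07 in ΔTUT4/7. All 3 WT ratios were above all 3 ΔTUT4/7 ratios, which gives p = 0.10 in the two-sided exact permutation test, the smallest this design allows (0.20 after adjustment over the 2 pairs). GNL3 overlaps PBRM1 on the opposite strand, which had 106% as many counts.

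The 6 proteins of ITS2 processing and the rixosome had the lowest median of the 9 groups, 0.42. LAS1L, the endonuclease that cuts ITS2, stood at 100.3, 86.8 and 104 CPM in WT against 149, 149 and 151 CPM in ΔTUT4/7 (log2FC 0.63 ± 0.06, FDR 6.73e-09). NOL9, its polynucleotide kinase partner, rose with a log2FC of 0.51 ± 0.04 at an FDR of 1.03e-09. SENP3, the SUMO protease of the complex, rose with a log2FC of 0.55 ± 0.05 at an FDR of 3.33e-09, and TEX10 by 0.33 ± 0.05 at an FDR of 4.93e-06. For these 4 genes no ΔTUT4/7 library fell among the WT libraries. SENP3 shares its strand with the readthrough gene SENP3-EIF4A1, which had 2.42 ± 0.72 CPM in WT against 7.86 ± 0.15 CPM in ΔTUT4/7.

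NOP53 and WDR18 of the same group were not called. WDR18, a rixosome subunit, stood at 34.1, 29.9 and 28.5 CPM in WT against 31.1, 30.4 and 28.6 CPM in ΔTUT4/7 (log2FC -0.03 ± 0.07, FDR 0.755). NOP53, which brings the RNA exosome to ITS2, stood at 66.8, 62.0 and 72.4 CPM and 72.6, 69.5 and 64.2 CPM (log2FC 0.04 ± 0.06, FDR 0.646). The WT and ΔTUT4/7 values of both genes were interleaved, and the sign of both changed with the settings listed in the closing section.

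The 4 AAA ATPases and their adaptors were all higher by less than 2-fold, with a median of 0.78. MDN1, the giant AAA ATPase midasin, rose from 376, 359 and 365 CPM to 647, 625 and 678 CPM (log2FC 0.83 ± 0.04, FDR 8.50e-13). NLE1, the adaptor on which midasin pulls, rose from 30.1 ± 1.44 to 57.1 ± 3.24 CPM (log2FC 0.92 ± 0.06, FDR 6.12e-11). All ΔTUT4/7 libraries of this enzyme and its adaptor were above WT. NVL, another AAA ATPase, rose with a log2FC of 0.48 ± 0.05 at an FDR of 2.23e-08, and WDR74, the protein it releases from the precursor, rose from 20.5 ± 2.02 to 34.0 ± 1.22 CPM (log2FC 0.72 ± 0.08, FDR 5.64e-08). WDR74 shares a region on its strand with the small nuclear RNA gene RNU2-2P, which stood at 33.4 ± 14.2 CPM in WT against 12.9 ± 2.23 CPM in ΔTUT4/7. The sum of WDR74 and RNU2-2P was 53.9 ± 16.2 CPM in WT against 46.9 ± 2.58 CPM in ΔTUT4/7, and in that sum the groups overlapped.

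The 4 late nuclear and cytoplasmic factors were divided, with 3 higher, 1 lower and a median of 0.51. LSG1, the cytoplasmic GTPase that releases NMD3, rose from 50.7, 51.3 and 54.0 CPM to 98.2, 101.8 and 98.8 CPM (log2FC 0.94 ± 0.05, FDR 1.37e-12). MRTO4, which holds the place of the stalk protein RPLP0 on the precursor, rose from 50.8 ± 3.79 to 89.0 ± 1.51 CPM (log2FC 0.81 ± 0.06, FDR 9.41e-11). NMD3, the export adaptor, stood at 101, 104 and 99.1 CPM against 115, 125 and 114 CPM (log2FC 0.22 ± 0.05, FDR 0.000693). The groups of NMD3 did not overlap, but its call was lost under library-size scaling (FDR 0.0910), upper-quartile scaling (0.0516) and limma on log2(CPM + 1) (0.0981). RSL24D1, which precedes the ribosomal protein RPL24 on the particle, stood at 98.8, 108 and 104 CPM in WT against 82.8, 99.1 and 88.0 CPM in ΔTUT4/7 (log2FC -0.21 ± 0.06, FDR 0.00552). ΔTUT4/7 replicate 2 of RSL24D1 lay above the lowest WT library, and without ΔTUT4/7 replicate 1 the FDR was 0.0589.

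**Figure D3:**
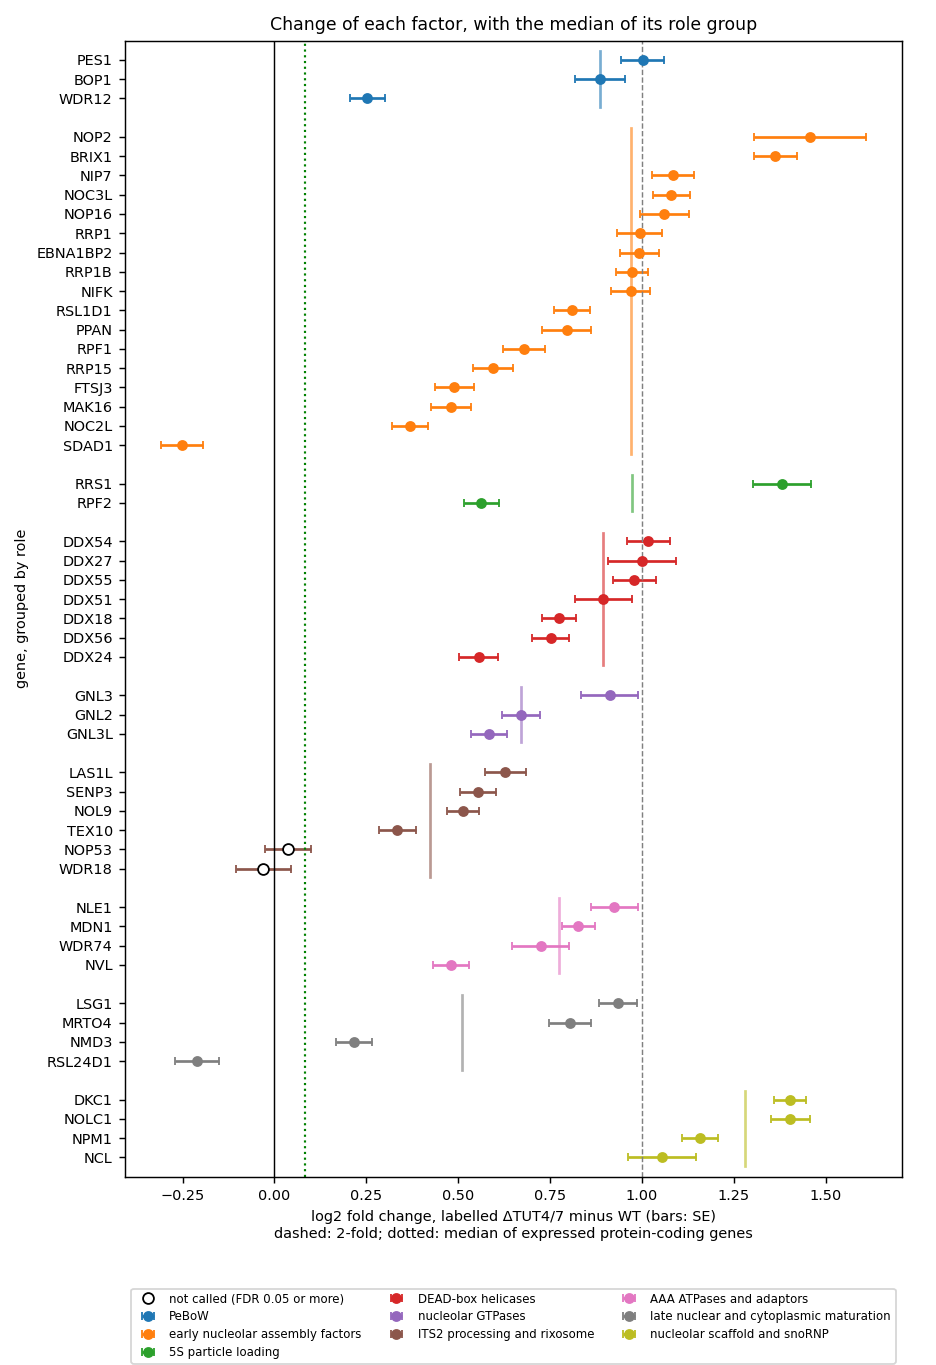
Log2 fold change of each factor, ΔTUT4/7 minus WT, with its SE as a bar, grouped by role with the median of each group as a vertical line. The scaffold and snoRNP group has a median of 1.28 and the ITS2 and rixosome group one of 0.42, and the open circles are NOP53 and WDR18, which were not called.

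Other genes of the pathway were counted from 3 lists. Of 39 other large-subunit factors, 34 passed the FDR as higher and 3 as lower, 9 rose 2-fold or more and the median was 0.68. Over all tested genes 28.6% were called higher, 29.0% lower and 5.90% at least 2-fold higher. Among the expressed protein-coding genes these shares were 42.7%, 31.7% and 5.74%. GTPBP4, the human Nog1 GTPase, rose from 98.1 ± 3.34 to 228 ± 4.78 CPM (log2FC 1.21 ± 0.05, FDR 3.29e-15). BCCIP, a nuclear factor of large-subunit assembly, rose with a log2FC of 1.32 ± 0.05 at an FDR of 3.50e-15. ZCCHC4, which methylates an adenosine of the large rRNA, had the lowest value and fell from 17.1 ± 0.694 to 10.8 ± 1.86 CPM (log2FC -0.66 ± 0.11, FDR 2.68e-05). The other 2 lower genes were SPATA5 at -0.57 ± 0.06 and RBM34 at -0.26 ± 0.07 on the log2 scale. Both, and the 2 that were not called, TMA16 and EFL1, are named for their outcome. Expressed genes within 5 Mb had a median of -0.87 for SPATA5, -0.43 for RBM34 and -0.19 for ZCCHC4. SPATA5 and RBM34 lay above that median and ZCCHC4 below it. For the higher genes GTPBP4 and BCCIP the neighbour medians were 0.59 and 0.52. GTPBP4 lay 0.62 and BCCIP 0.81 above them.

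Of 12 snoRNP partners of DKC1 and NOLC1, 11 were higher and 1 lower, with a median of 0.59, and 0 were at least 2-fold higher. Beside these counts stand 28.6%, 29.0% and 5.90% of all tested genes, and 42.7%, 31.7% and 5.74% of expressed protein-coding genes. RUVBL1, an ATPase of snoRNP assembly, rose with a log2FC of 0.96 ± 0.05 at an FDR of 1.10e-13, and FBL, the methyltransferase fibrillarin of box C/D snoRNPs, by 0.64 ± 0.05 at an FDR of 9.29e-11. SHQ1, the chaperone of newly made dyskerin, fell from 38.0 ± 1.696 to 20.8 ± 0.688 CPM (log2FC -0.87 ± 0.07, FDR 5.45e-10), while expressed genes within 5 Mb of it had a median of -1.46. DKC1 and its chaperone thus had opposite signs, although SHQ1 lay 0.59 above that median and DKC1 lay 0.82 above its own. The neighbour medians of RUVBL1 and FBL were -0.08 and 0.25, and these genes lay 1.04 and 0.40 above them.

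The 46 ribosomal proteins of the large subunit, which the factors assemble, had smaller fold changes. Their median log2FC was 0.16, with 20 higher, 9 lower and 0 at least 2-fold in either direction. The 20 were 43.5% of the list, near the 42.7% of expressed protein-coding genes called higher. The higher genes made up 69.0% of these calls, but 51.9% (14 higher, 13 lower) under library-size scaling and 54.2% (13 higher, 11 lower) under upper-quartile scaling. Over all tested genes the higher genes made up 49.6% of calls, and 40.1% and 41.4% under these 2 scalings. RPLP0, the stalk protein that replaces MRTO4, rose with a log2FC of 0.82 ± 0.04 at an FDR of 4.22e-13 and RPL10 by 0.80 ± 0.04 at an FDR of 8.81e-13. RPL22 had the lowest log2FC, -0.59 ± 0.05 at an FDR of 4.87e-09. The median of expressed genes within 5 Mb was 0.79 for RPLP0, 0.57 for RPL10 and -0.16 for RPL22. After subtraction of that median RPLP0 was at 0.04, RPL10 at 0.23 and RPL22 at -0.43. Ribosomal protein genes have many processed pseudogenes, so their estimated counts are uncertain.

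**Figure D4:**
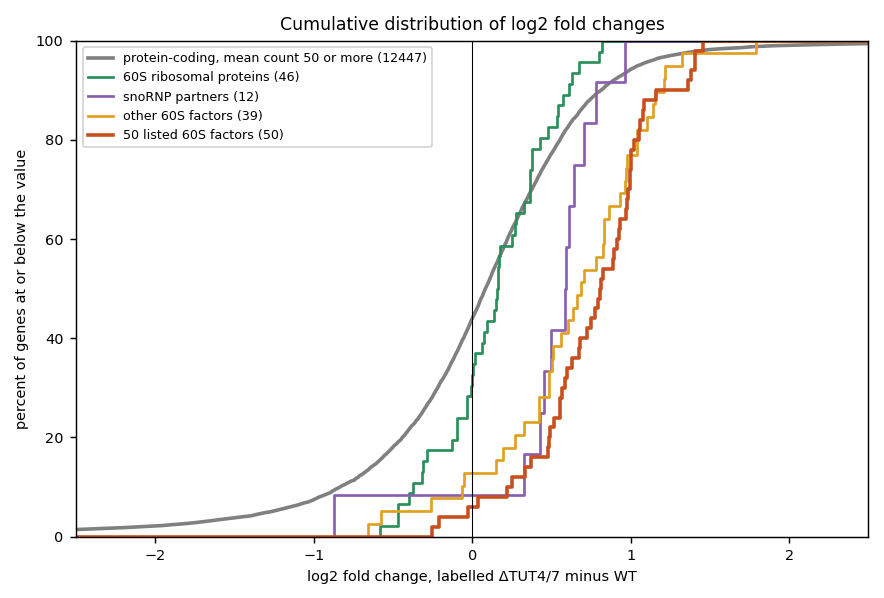
Cumulative distribution of the log2 fold changes, ΔTUT4/7 minus WT, for the 50 factors, the 3 other lists of the pathway and the 12447 protein-coding genes with an average of at least 50 counts. The curve of the 50 factors crosses the 50% level at 0.81, that of the ribosomal proteins at 0.16 and that of the protein-coding genes at 0.08.

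To set the factors beside their chromosomal surroundings, each one was compared with the median log2 fold change of expressed genes within 5 Mb. Of the 50 factors, 47 lay above their neighbours, and the median of the factors after subtraction was 0.69. The neighbour median exceeded 0.5 for DDX55 (0.78), DDX51 (0.68), DKC1 (0.58) and GNL3 (0.53), which are named for that value. DDX55 and DDX51 lie on chromosome 12 at chr12:123602077-123620943 and chr12:132136594-132144319, and after subtraction they were at 0.20 and 0.21. DDX54, at chr12:113157173-113185479, had a neighbour median just under that mark, 0.497, and was at 0.52 after subtraction. DKC1 was at 0.82 and GNL3 at 0.38 after it. NOP53, WDR18 and RSL24D1 were the 3 factors below their neighbours. The part of these surroundings in the values was not tested.

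**Figure D5:**
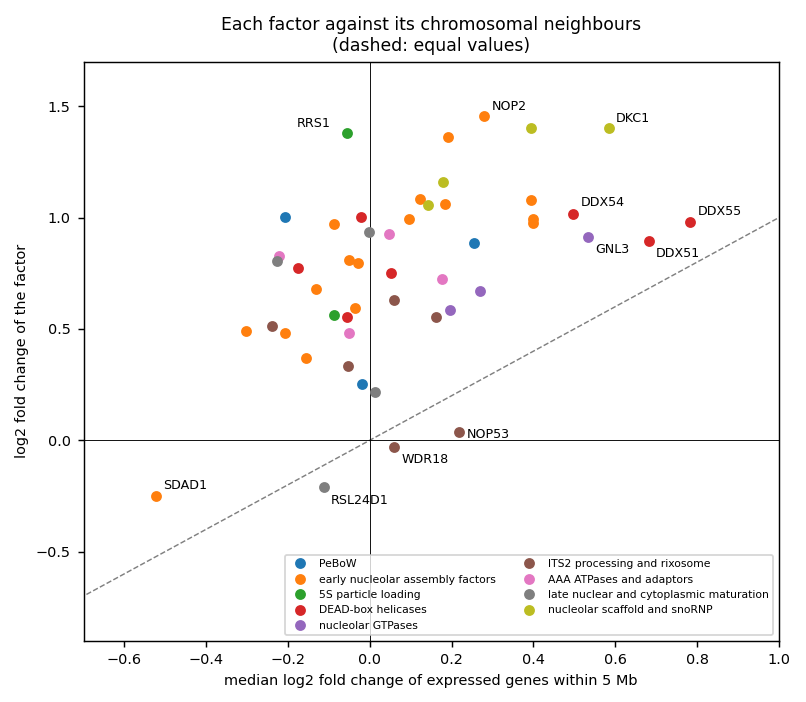
Log2 fold change of each of the 50 factors against the median log2 fold change of expressed genes within 5 Mb, colored by role. The dashed line marks equal values, and 47 factors lie above it, with SDAD1 above the line at -0.25 against a neighbour median of -0.52.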

How the data were processed

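RNA-seq libraries of 3 WT and 3 ΔTUT4/7 HEK 293T samples were analysed from gene counts. Per the labels and the study's methods, the authors reduced rRNA, used STAR 2.7.3a for alignment of read pairs against hg38, then quantified Ensembl release 102 genes in Partek 10.0.22. The authors deposited estimated counts from an expectation-maximisation model, which divides reads among overlapping or similar genes, so between 45.2% and 50.0% of values per library were not whole numbers (further than 1e-09 from one). Use of read strand is not given in the sources used here, and 35 of the 50 factors overlap another gene. A deposited comparison table (the authors' p-values, FDR, ratios, fold changes and least-squares means) was not used.

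Estimated counts were rounded. A gene was kept if any of the 6 libraries held more than 12 counts, as in the study, leaving 23952 genes. The 6318 others held 0.0960% of counts. Counts were scaled by TMM and tested with edgeR 4.0.16 (R 4.3.3; robust glmQLFit, glmQLFTest, no covariate), and p-values were adjusted by the Benjamini-Hochberg method across these genes. No 2 libraries agreed within sampling noise (chi-square per degree of freedom 2.41 to 10.1 within groups). The labels say biological replicates without naming separate cultures, so p-values measure the spread between these samples. Each ± on a log2 fold change is an SE from the F statistic and each ± on CPM an SD over 3 libraries. CPM is relative to TMM-scaled library size, except in the alternative limma on log2(CPM + 1), which used library size without TMM. The biological coefficient of variation was 6.44%. On simulated counts for this comparison over 22977 genes, 82 genes were changed 1.5-fold, 59 were changed 2-fold and 59 were changed 4-fold. All changed genes averaged at least 50 counts. Of these 3 sets 76.8%, 98.3% and 100% were recovered, and 0.0746% of unchanged genes were called. In the data 28.6% of tested genes were called higher and 29.0% lower. With so few genes changed, the simulation cannot show how scaling or false calls behave in these data. Promoters came from RefSeq (GRCh38.p14) and gene positions from GENCODE release 44.

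The members and lists were chosen with earlier results of these data known. Named genes were TUT4, TUT7, MYC, the 3 smallest p and the largest p of each role group, every member not called higher, both paralog pairs, and the 2 smallest p and the lowest fold change of each other list. Genes beyond these are listed by an outcome or overlap stated beside them. Alternatives were other scalings and filters, DESeq2 1.42.0, limma 3.58.1 (voom, and log2(CPM + 1)), a test against a 1.5-fold minimum, neighbour subtraction within 5 Mb, each library left out, a replicate block and, added after the data were seen, subtraction of GC and length trends.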

Additional observations from a re-analysis of the deposited data

How the results depend on the processing

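The number of factors called higher was 45 or 46 under every alternative that gave an FDR except a test against a 1.5-fold minimum, which called 29 higher and 0 lower. Subtraction of neighbours or of GC and length trends gave fold changes with no test. Under the 1.5-fold minimum the other large-subunit factors called higher went from 34 to 18. The snoRNP partners went from 11 to 2 and the ribosomal proteins from 20 to 2. The share of all tested genes called under that minimum is not given here. The number at least 2-fold higher went from 13 to 6 under library-size scaling, 6 under upper-quartile scaling and 6 in limma on log2(CPM + 1). It was 8 with genes averaging 50 counts or more. The share of all tested genes at least 2-fold higher went from 5.90% to 4.44% under library-size scaling and 4.57% under upper-quartile scaling. That share was 4.64% with genes averaging 50 counts or more. Upper-quartile scaling called 13 ribosomal proteins higher. The median of the factors was 0.69 under library-size scaling, 0.71 under upper-quartile scaling and 0.69 after neighbour subtraction. It was also 0.69 in limma on log2(CPM + 1), which used library size without TMM and so is not a separate scaling. Library-size and upper-quartile scaling moved the median of all genes from -0.02 to -0.13 and -0.12, and limma on log2(CPM + 1) moved it to -0.09. Subtraction of GC and length trends left the median of the factors at 0.79. It moved 14 of the 50 factors by at least the SD of their log2 CPM, combined over both groups. Neighbour subtraction moved 31 by that measure and changed the sign of 1 called factor, SDAD1. TUT4 was at 2.27 after subtraction of GC and length trends and 1.89 after neighbour subtraction, and TUT7 at -1.45 after the latter.

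With 1 library left out, 46 factors were higher, 1 to 2 lower and 9 to 16 at least 2-fold higher, the lost lower call being RSL24D1 without ΔTUT4/7 replicate 1. The ribosomal proteins called higher ran from 16 to 26. NOP53 turned negative under library-size scaling (-0.078), limma on log2(CPM + 1) (-0.0785), the filter at an average of 50 counts (-0.027) and upper-quartile scaling (-0.064). With 1 library left out it was lowest at -0.022 (WT replicate 2) and highest at 0.091 (WT replicate 3). WDR18 was lowest at -0.092 (WT replicate 3) and highest at 0.038 (WT replicate 1). SDAD1 turned positive after neighbour subtraction (0.27). The cause of these shifts was not tested.

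The replicate numbers did not pair the libraries: deviations from the group means of same-numbered libraries correlated at 0.05, -0.01 and -0.02 across genes. With the replicate number as a block, 46 factors were higher, 2 lower and 13 at least 2-fold higher, their median was 0.81, and 18 ribosomal proteins were higher.

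No protein or rRNA level was measured in these libraries. Estimated counts limit statements on NOP2, WDR74, PPAN, SDAD1 and SENP3, which overlap a same-strand gene holding at least 6.0% of their counts. DDX54, DDX55, DKC1, GNL3, NCL and NVL also overlap same-strand genes, each holding 0.751% of their counts or less. If the counting did not use strand, they also limit those on BRIX1, DDX27, DDX55, FTSJ3, GNL3, NIP7, NOP16 and TEX10. With 3 libraries a group, no outlier check was made.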
